A study of Mus musculus with 6 samples.

Results

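The Hox genes of the 4 mouse clusters were followed in R1 mouse embryonic stem cells that stably expressed a short hairpin RNA (shRNA) against Pcl2, set against R1 cells stably expressing a mismatch control shRNA. Pcl2 is the product of Mtf2, a Polycomb-like protein that associates with Polycomb repressive complex 2 (PRC2). The cells of both groups were kept undifferentiated in serum medium with leukaemia inhibitory factor, and total RNA of 3 biological replicates per group was hybridised to GeneChip arrays. According to the labels the shRNA samples came from 1 clone, so the hairpin and the clone cannot be told apart, and p-values measure only the spread between these samples. The members were all probe sets naming a single gene of the Hoxa, Hoxb, Hoxc or Hoxd series, dim ones included. These were 48 of the 34945 single-gene probe sets, and they covered 33 of the 39 Hox genes in the reference gene table: 9 each of Hoxa and Hoxb, 7 of Hoxc and 8 of Hoxd.

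Hox genes encode homeodomain transcription factors that give cells along the body axis their positional identity. Within a cluster the genes lie in the order in which they come on during development, with low numbers first and towards the head and high numbers later and towards the tail. In undifferentiated embryonic stem cells the clusters are covered by histone H3 trimethylated by PRC2 and are largely silent, while in fibroblasts and other mesenchymal cells many Hox genes are active.

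The signal is the MAS5 intensity of a probe set on a linear scale. Background was taken as a signal of 20.3, the highest value on any array of 27 bacterial control probe sets. These were assumed to have received no spike. A difference is given as the log2 fold change of log2(signal + 7), Pcl2 shRNA minus mismatch control, with its standard error (SE) and the 95% interval from limma, fitted on all 34945 single-gene probe sets. A probe set was called at a Benjamini-Hochberg adjusted p below 0.05 over all of them. For Hox probe sets not above background on all arrays of a group the fitted value depends on the pseudocount of 7 and is no fold of the transcript, so except for Hoxd9 it enters only medians, ranges and counts of signs. Where arrays of the other group lay under background, as for Hoxb2 and Hoxc13, the fitted value depends on the pseudocount as well. A fold given as at least some value compares the geometric mean signal of the brighter group with 20.3, the dimmer group being under background. It carries no sampling error, and single arrays can lie closer to background. A p-value beside it belongs to the limma fit and not to the bound. Means are ± SD with n = 3 arrays per group, and the number of arrays limits the precision. In bulk RNA, fewer cells of a type and less RNA per cell cannot be told apart.

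Mtf2 was lower in the Pcl2 shRNA arrays, which checks the labels. Its brightest probe set gave 1048, 1167 and 870 in Pcl2 shRNA cells, against 1951, 1513 and 1704 in control cells, so that 59.7% of the control mean was left (log2 fold change -0.74, SE 0.17, limma adjusted p = 0.0363). The call was lost without either of control replicates 1 and 3 or any 1 shRNA replicate, with values of -0.84 to -0.63. Mtf2 had 6 probe sets. Others gave -0.75 and -0.73 (limma adjusted p = 0.0224 and 0.0371) and, not called, -0.68 (0.0659). A dimmer one, above background on all arrays, gave 0.25 (limma adjusted p = 0.663), and the last was above background on 1 array. Of the 10 stem cell markers all were above background in both groups, among them Pou5f1, at 3356 ± 695 in Pcl2 shRNA cells and 2628 ± 638 in control cells. Zfp42 and Tdgf1 were called higher and the other 8 were not called, where 6.87% of all genes were called by their brightest probe set. With the replicate number as a block Nanog, Sox2 and Dppa4 were called higher too (limma adjusted p = 0.0432, 0.0199 and 0.0351). That fit called 3640 of the 34945 single-gene probe sets, against 1950 without the block.

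Most Hox probe sets lay at the bottom of the signal range in both groups, and no Hox probe set differed past the threshold. Of the 48, 28 (58.3%) stood at or below background on all 6 arrays, against 22.5% of all single-gene probe sets. Only 9 (18.8%) were above it on all 3 arrays of at least 1 group, against 64.5% of all. Those 9 belonged to Hoxa5, Hoxa9, Hoxa11, Hoxb2, Hoxc6, Hoxc13, Hoxd8 and Hoxd13, spread over all 4 clusters. The other 11 probe sets were above background on some arrays but not on all 3 of either group. In all, 69 of the 288 Hox signals exceeded background, 34 of 144 on the Pcl2 shRNA arrays and 35 of 144 on the control arrays. The level of 20.3 came from a Pcl2 shRNA array. Set against each array's own bacterial controls, which reached 18 to 20.3 on Pcl2 shRNA arrays and 11.2 to 12.1 on control arrays, 37 Hox signals on the Pcl2 shRNA arrays and 65 on the control arrays were above background, and 12 probe sets in place of 9 were above it on all arrays of a group.

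limma called 0 of the 48 Hox probe sets, where 5.58% of all single-gene probe sets were called (1.79% higher and 3.79% lower). The rate was 8.21% for probe sets above background on all arrays of a group and 0.790% for the rest, to which 39 of the 48 Hox probe sets belong. At an unadjusted p below 0.05 there were 2 Hox probe sets, in Hoxb4 and Hoxd10, against 18.9% of all probe sets. That share was not split by background, and most Hox probe sets are dim. The median log2 fold change of the Hox probe sets was 0.01, beside 0.05 over all probe sets, with 25 positive and 23 negative values between -1.19 and 0.81. With the replicate number as a block the Hox count stayed at 0, while the count over all single-gene probe sets was 3640 in place of 1950. Hox probe sets at a limma unadjusted p below 0.05 then numbered 4 in place of 2. The 95% interval lay within 2-fold either way (log2 fold change between -1 and 1) for 28 Hox probe sets, 6 of them among the 9 above background, and reached 2-fold or beyond for the other 20. Of the 28, the other 22 were not above background on all arrays of a group, and their intervals, narrowed by the pseudocount, set no limit on a fold of the transcript.

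**Figure D1:**
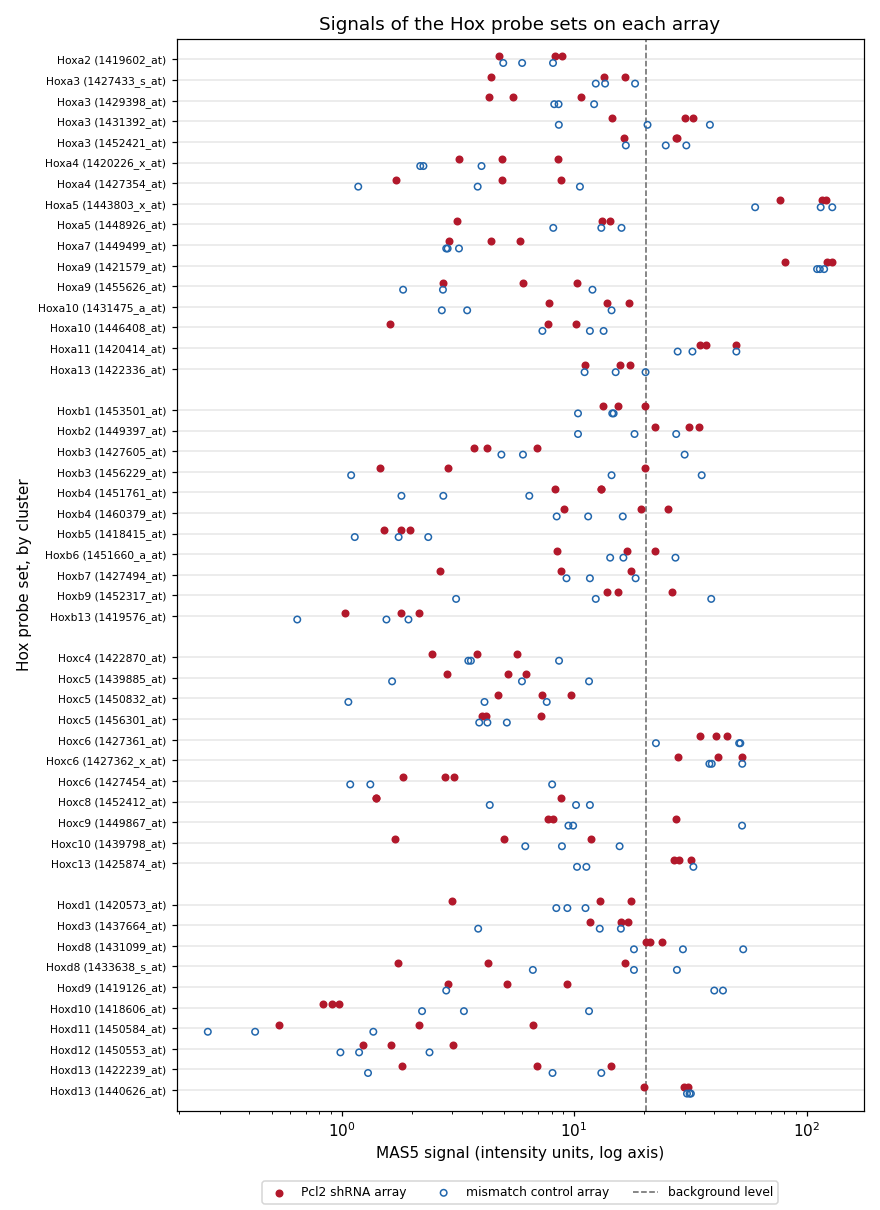
MAS5 signal (log axis) of each of the 48 Hox probe sets on the 3 Pcl2 shRNA arrays (filled, upper of each row) and the 3 mismatch control arrays (open, lower), by cluster, with the background level of 20.3 dashed. Most points of both groups lie left of the line, and 9 probe sets have all 3 arrays of a group to the right of it.

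The Hoxa cluster, on chromosome 6, held the Hox probe sets that stood clearest of background, and neither differed between the groups. Hoxa9, a posterior gene known for its part in blood progenitors and leukaemia, gave 129, 80.4 and 123 in Pcl2 shRNA cells, against 119, 114 and 111 in control cells. The shRNA arrays spanned the control arrays on both sides, and the log2 fold change was -0.07 (95% interval -0.56 to 0.41, adjusted p = 0.904). The value turned to 0.13 without Pcl2 shRNA replicate 2. Hoxa5, which patterns the neck, lung and thoracic skeleton, gave 117, 121 and 76.7 in Pcl2 shRNA cells, against 115, 60.1 and 129 in control cells. Each group had 2 high arrays and 1 low one, with a log2 fold change of 0.08 (95% interval -0.61 to 0.77, adjusted p = 0.922), and the sign turned without Pcl2 shRNA replicate 1 or 2 or control replicate 2. That probe set is of the type marked as open to cross-hybridisation. Hoxa11, needed for limb and uterus development, gave 34.8, 36.8 and 49.8 in Pcl2 shRNA cells, against 49.9, 27.9 and 32.3 in control cells (log2 fold change 0.14, 95% interval -0.50 to 0.77). Its groups overlapped almost fully.

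For Hoxa9 and Hoxa5 a second probe set did not exceed background on any array. It gave 2.72, 6.05 and 10.3 in Pcl2 shRNA cells and 2.73, 1.84 and 12 in control cells for Hoxa9, and 13.2, 3.14 and 14.3 in Pcl2 shRNA cells and 13.1, 8.14 and 16.0 in control cells for Hoxa5. So presence of either transcript rested on 1 probe set of the gene. The rest of the cluster was dim. Probe sets of Hoxa2, Hoxa4, Hoxa7 and Hoxa10 never exceeded background, Hoxa13 was at the level itself, 20.3, in control replicate 1 and lower elsewhere, and of 4 Hoxa3 probe sets 2 were above it on some arrays of both groups. One of those, for example, gave 27.8, 16.4 and 27.4 in Pcl2 shRNA cells, against 24.8, 16.7 and 30.4 in control cells. Over the 16 Hoxa probe sets the log2 fold changes ran from -0.44 to 0.59, both extremes belonging to Hoxa10, with a median of 0.05.

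Promoter sequence is shown for Hoxa9 and Hoxa5, the clearest signals, and for Hoxd9, which had the most negative fitted difference and is taken up with its cluster. Polycomb-like proteins bind unmethylated CG dinucleotides, and Polycomb-covered promoters are typically rich in them. The windows run from 250 bases before to 50 bases after the RefSeq start on GRCm38.p6, 5′ to 3′ on the gene's strand, with every CG in capitals. They are chr6:52227321-52227620 on the minus strand for Hoxa9, chr6:52204538-52204837 on the minus strand for Hoxa5, and chr2:74697513-74697812 on the plus strand for Hoxd9.
Hoxa9: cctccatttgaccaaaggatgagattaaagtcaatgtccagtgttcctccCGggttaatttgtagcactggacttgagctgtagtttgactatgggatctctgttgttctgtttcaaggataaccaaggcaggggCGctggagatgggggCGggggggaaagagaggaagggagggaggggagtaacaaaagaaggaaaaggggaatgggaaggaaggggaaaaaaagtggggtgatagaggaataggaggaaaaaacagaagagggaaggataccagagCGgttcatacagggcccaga
Hoxa5: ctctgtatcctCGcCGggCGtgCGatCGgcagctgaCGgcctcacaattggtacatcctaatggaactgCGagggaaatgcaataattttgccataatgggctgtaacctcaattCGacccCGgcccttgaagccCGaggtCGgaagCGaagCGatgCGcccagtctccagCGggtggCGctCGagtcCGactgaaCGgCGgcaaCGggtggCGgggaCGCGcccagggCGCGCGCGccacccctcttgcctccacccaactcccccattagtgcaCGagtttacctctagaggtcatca
Hoxd9: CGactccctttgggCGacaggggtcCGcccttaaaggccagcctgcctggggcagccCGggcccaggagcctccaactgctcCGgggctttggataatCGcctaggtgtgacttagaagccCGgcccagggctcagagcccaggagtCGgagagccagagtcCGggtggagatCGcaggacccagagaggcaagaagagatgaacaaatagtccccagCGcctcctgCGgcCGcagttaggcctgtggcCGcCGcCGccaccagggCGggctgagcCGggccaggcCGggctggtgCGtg
The 3 windows held 4, 29 and 20 CG. A window was found for 19 of the 33 measured Hox genes, with 21 windows in all and a median of 15 CG, against 7 over the 32851 promoter windows of all genes. At least 1 CG was present in 94.6% of all windows. CG number did not follow signal in any simple way: the windows of the 5 matched genes above background (Hoxa5, Hoxa9, Hoxa11, Hoxd8 and Hoxd13) ran from 4 to 37 CG, and those of the other 14 matched genes from 4 to 45, with the highest number at Hoxa13. These counts describe letters in a window and not binding.

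The Hoxb cluster, on chromosome 11, had 1 probe set of 11 above background on all arrays of a group. It belonged to Hoxb2, a hindbrain gene, and gave 31.1, 22.2 and 34.6 in Pcl2 shRNA cells, against 10.4, 27.5 and 18.2 in control cells. All 3 shRNA arrays and 1 control array exceeded background, the ranges overlapped, and the log2 fold change of 0.54 was not called (95% interval -0.18 to 1.26, adjusted p = 0.422). That value was 0.70 with a pseudocount of 1 and 0.36 with a pseudocount of 21. Hoxb4, used to expand blood stem cells, had the smallest p of all Hox probe sets, unadjusted 0.00893. It gave 13.1, 13.1 and 8.29 in Pcl2 shRNA cells, against 6.42, 1.81 and 2.74 in control cells (limma adjusted p = 0.0994). The groups did not overlap, as held for 12.4% of all probe sets in that direction, but all 6 values were below background. The other Hoxb4 probe set gave 25.3, 19.4 and 9.09 in Pcl2 shRNA cells and 11.5, 8.42 and 16.2 in control cells, overlapping groups with 1 shRNA array above background.

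Single arrays stood apart, or the arrays of a group scattered, in several dim Hoxb genes. One Hoxb3 probe set was at 29.9 in control replicate 3 and between 3.70 and 6.90 on the other arrays. Another was at 35.4 in control replicate 1 and at 1.1 in control replicate 2. Hoxb9 gave 26.5, 13.9 and 15.4 in Pcl2 shRNA cells, against 38.9, 3.11 and 12.4 in control cells. Hoxb6 exceeded background on 1 array of each group. Hoxb1, the first hindbrain gene of the cluster to respond to retinoic acid, gave 13.3, 15.4 and 20.1 in Pcl2 shRNA cells, against 14.6, 10.4 and 14.8 in control cells, and did not exceed background on any array. Hoxb5, Hoxb7 and Hoxb13 did not either, and the Hoxb5 and Hoxb13 signals were at most 2.36.

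In the Hoxc cluster, on chromosome 15, Hoxc6 and Hoxc13 were above background. Hoxc6, a gene of the thoracic region, had 2 such probe sets, the second of the type open to cross-hybridisation. The first gave 34.7, 45.3 and 40.7 in Pcl2 shRNA cells, against 51.3, 22.5 and 51.9 in control cells (log2 fold change 0.01, 95% interval -0.71 to 0.74). The second gave 52.7, 28.1 and 41.7 in Pcl2 shRNA cells, against 52.9, 38.2 and 39.1 in control cells (log2 fold change -0.10, 95% interval -0.73 to 0.54). In both the groups overlapped, and the sign turned when single arrays were left out. The remaining Hoxc6 probe set was at most 8.05 on every array. Hoxc13, a gene of hair and nail formation, gave 28.2, 31.7 and 27.0 in Pcl2 shRNA cells, against 10.3, 11.3 and 32.6 in control cells. The 3 shRNA arrays lay close together, while 2 control arrays were under background and the other was the highest of all 6, and the log2 fold change of 0.63 was not called (95% interval -0.16 to 1.42, adjusted p = 0.389). That value was 0.84 with a pseudocount of 1 and 0.40 with a pseudocount of 21.

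The remaining Hoxc probe sets were dim. Hoxc8, a gene of the thoracic region, gave 8.79, 1.41 and 1.4 in Pcl2 shRNA cells, against 11.7, 4.34 and 10.2 in control cells, all under background (limma adjusted p = 0.381). Hoxc9 reached 27.4 in Pcl2 shRNA replicate 1 and 52.8 in control replicate 1 and lay between 7.73 and 9.91 on the other 4 arrays. Hoxc4, Hoxc5 and Hoxc10 did not exceed background, with signals from 1.07 to 15.7.

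The Hoxd cluster, on chromosome 2, had the most negative fitted value of all Hox probe sets, that of Hoxd9. This posterior gene, which patterns the limb and the lumbar region, gave 2.86, 5.16 and 9.37 in Pcl2 shRNA cells, against 43.7, 2.82 and 40.1 in control cells. All shRNA arrays and control replicate 2 were under background, and control replicates 1 and 3 were well over it. The fitted log2 fold change was -1.19 (SE 0.58, 95% interval -2.51 to 0.12, adjusted p = 0.316), a value that depends on the pseudocount, and no lower bound above 1-fold can be given over all arrays. Without control replicate 2 it was -1.96 (SE 0.30, limma adjusted p = 0.0154), at least 2.07-fold lower than the 2 remaining control arrays, in a fit that called 4.93% of all probe sets. Hoxd9 was the 1 Hox call in any of the alternatives.

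Of the other Hoxd genes, Hoxd8 had 1 probe set at 20.4, 21.2 and 23.8 in Pcl2 shRNA cells, against 53.4, 18.1 and 29.4 in control cells (log2 fold change -0.41, 95% interval -1.17 to 0.36, adjusted p = 0.597). The shRNA arrays stood barely above background, and control replicates 1 and 3 were higher than all of them. The value was -0.07 without control replicate 1 and -0.70 without control replicate 2. A second Hoxd8 probe set gave 1.75, 4.26 and 16.6 in Pcl2 shRNA cells, against 27.7, 6.65 and 18.1 in control cells, with 1 array above background (limma adjusted p = 0.4). Hoxd10 gave 0.974, 0.914 and 0.831 in Pcl2 shRNA cells, against 2.22, 3.36 and 11.6 in control cells (limma unadjusted p = 0.0448, adjusted p = 0.250). Its groups did not overlap, as held for 11.8% of all probe sets in that direction, but all 6 values were below background. The highest, in control replicate 3, lay close to the 12.1 reached by that array's own bacterial controls.

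Hoxd13, the last gene of the cluster and a gene of digit formation, gave 20, 30.9 and 29.6 in Pcl2 shRNA cells, against 31.8, 30.6 and 31.4 in control cells (log2 fold change -0.19, 95% interval -0.76 to 0.38, adjusted p = 0.751). Apart from shRNA replicate 1 the arrays of both groups lay within 29.6 to 31.8. Its second probe set did not exceed background. Hoxd1, Hoxd3, Hoxd11 and Hoxd12 were below background on all arrays, Hoxd11 and Hoxd12 at 6.66 or less.

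**Figure D2:**
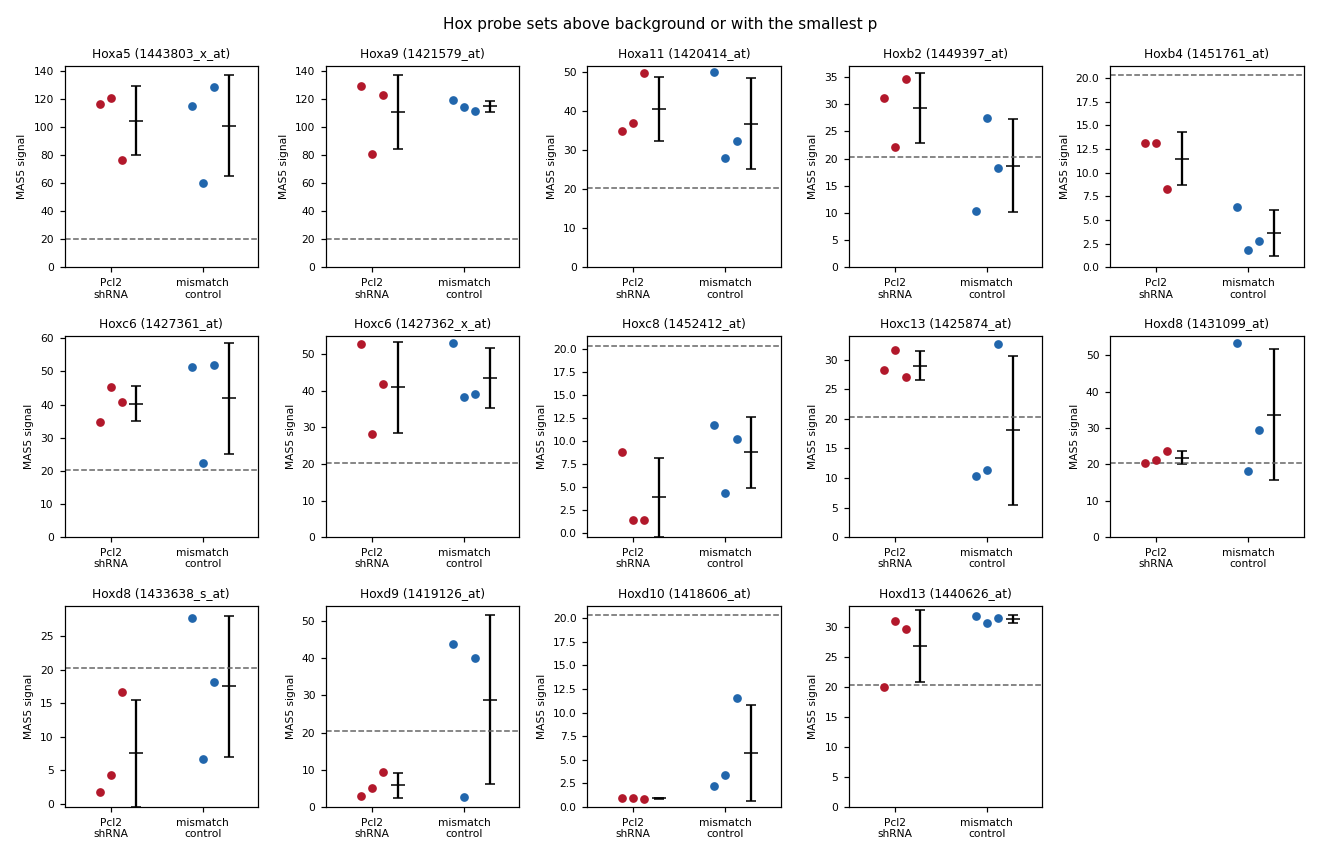
MAS5 signals (linear axes, each panel with its own scale) of the 14 Hox probe sets that were above background on all arrays of a group or among the 6 with the smallest p, with Pcl2 shRNA arrays left and mismatch control arrays right. Points are arrays, black bars are mean ± SD (n = 3) and the dashed line is the background of 20.3. The groups overlap in every panel except those of Hoxb4 and Hoxd10, whose values are all below the line, and Hoxd9 has 2 control arrays at 43.7 and 40.1 and all others under 10.

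No position along the clusters stood out. Probe sets of paralogue groups 1 to 4 had a median log2 fold change of 0.06 with 1 of 16 above background, groups 5 to 8 had -0.10 with 4 of 15, and groups 9 to 13 had 0.02 with 4 of 17. By cluster the medians were 0.05 for Hoxa, 0.05 for Hoxb, -0.10 for Hoxc and -0.09 for Hoxd. Of the 11 Hox genes with more than 1 probe set, 7 had probe sets of both signs, and 5 had some but not all above background. The 3 probe sets naming 2 Hox genes each, which are no members, exceeded background on 1 of 18 occasions.

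**Figure D3:**
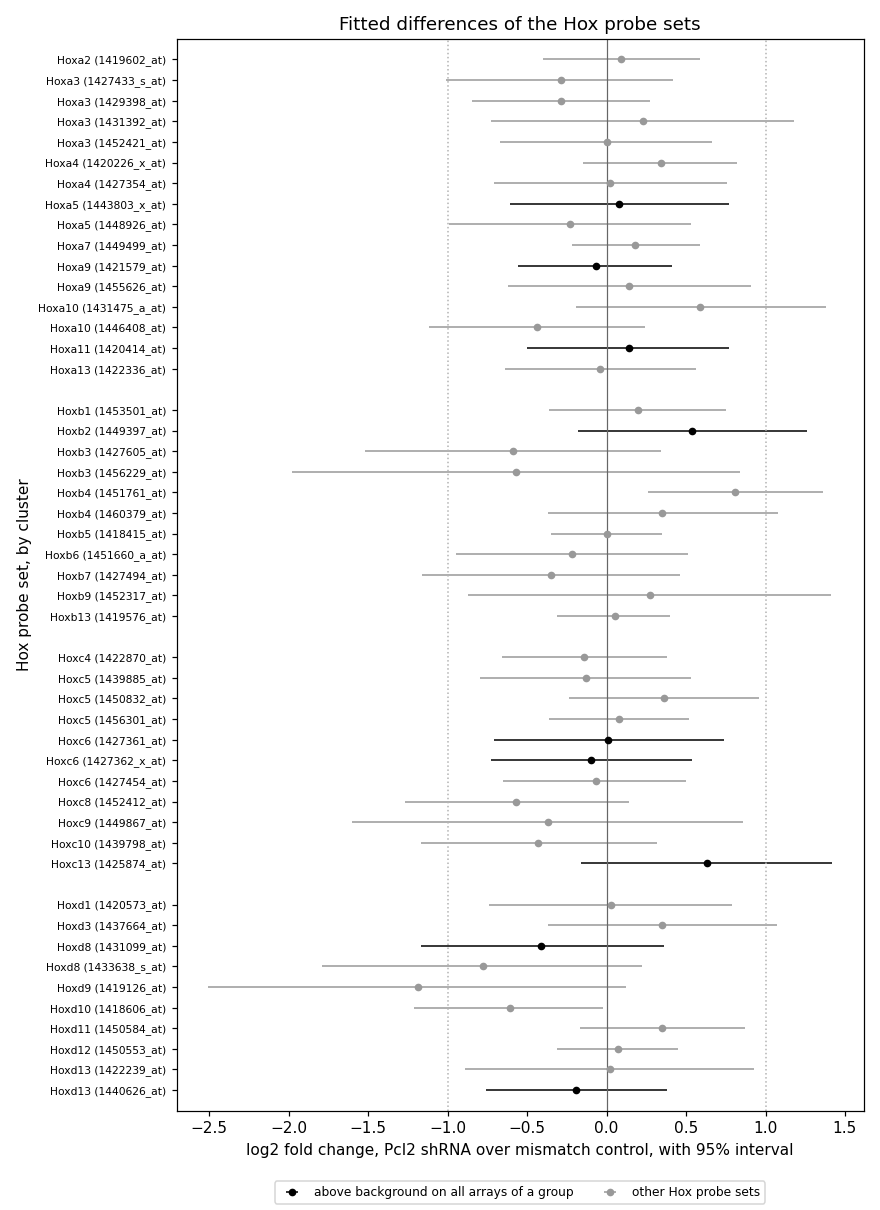
Fitted log2 fold change, Pcl2 shRNA over mismatch control, of the 48 Hox probe sets by cluster, with 95% intervals from limma. Black marks the 9 probe sets above background on all arrays of a group, grey the others, and dotted lines mark 2-fold. Grey values depend on the pseudocount, as do black ones with arrays of the other group under background, such as Hoxb2 and Hoxc13. The intervals of 2 grey probe sets, in Hoxb4 and Hoxd10, do not include 0, and neither passes the adjusted threshold.

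The Hox signals spread more widely over the control arrays than over the Pcl2 shRNA arrays. The summed Hox signal was 858, 741 and 780 on the Pcl2 shRNA arrays, against 1036, 609 and 881 on the control arrays, so that the control arrays held both the highest and the lowest sum. Control replicate 1 had the highest value of 19 of the 48 Hox probe sets (39.6%). Among probe sets not above background on all arrays of a group, it was the highest array for 15 of 39 Hox probe sets (38.5%) and for 16.0% of all single-gene probe sets. Markers of fibroblasts and other mesenchyme, cells in which Hox genes are known to be active, were summed over 12 measured genes. The sum was 686, 351 and 376 on the Pcl2 shRNA arrays, against 1218, 499 and 571 on the control arrays, also highest in control replicate 1. Of these 12 genes 8 were above background on all arrays of a group, Col1a1 at 130, 21.9 and 3.49 in Pcl2 shRNA cells against 251, 81.5 and 75 in control cells, while Dcn and Lum stayed at or below background on all 6 arrays. Twist2 was called lower and the other 11 were not called, beside 6.87% of all genes called by their brightest probe set. Col1a1 was called lower with the replicate block (limma adjusted p = 0.0229). The part of such cells in the Hox signals was not tested.

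Related genes were read by the brightest probe set of each, from 7 lists with 59 measured genes. These held inputs to the clusters and Hox cofactors, and also relatives of the Hox genes, genes beside the clusters and noncoding transcripts. limma called 7 of them (2 higher, 5 lower), where 6.87% of all genes were called by their brightest probe set. The median log2 fold change of the 59 was 0.00. Among the caudal factors, which switch on middle and posterior Hox genes in the embryo, Cdx2 was lower. It gave 18.4, 5.07 and 2.13 in Pcl2 shRNA cells, all under background, against 145, 29.2 and 97.1 in control cells, and was at least 3.67-fold lower (adjusted p = 0.0335). Control replicate 2 was again the lowest control array, and the bound ran from 2.63-fold, leaving out control replicate 1, to 5.85-fold, leaving out control replicate 2. The Cdx2 call was lost without either of control replicates 1 and 3 or Pcl2 shRNA replicates 2 and 3. It was also lost with signals floored at background (limma adjusted p = 0.274). The second Cdx2 probe set was under background on all arrays. Cdx1 and Cdx4 were not called and exceeded background on 1 array each. Cdx2 is also a factor of the trophectoderm. The summed signal of 4 other markers of that lineage was 107, 100 and 190 on the Pcl2 shRNA arrays, against 472, 233 and 329 on the control arrays. Most of that sum came from Eomes and Krt7. Eomes gave 68.1, 69.3 and 123 in Pcl2 shRNA cells, against 320, 167 and 105 in control cells, overlapping groups. None of the 4 was called, Krt7 giving 20, 27.7 and 42.3 in Pcl2 shRNA cells and 135, 50.1 and 198 in control cells (limma adjusted p = 0.0657, and 0.0190 with the replicate block). Elf5 was above background on 1 array and Gata3 on none. Of 11 germ layer genes 1 was called higher and 1 lower. The higher one, Sox1, gave 28.5, 18.3 and 15.5 in Pcl2 shRNA cells, against 0.452, 8.43 and 2.41 in control cells (limma adjusted p = 0.0384). Only 1 of these arrays was above background. The lower one was Mixl1, a gene of the primitive streak. It gave 18.5, 8.14 and 6.82 in Pcl2 shRNA cells, against 153, 54.1 and 48.7 in control cells (limma adjusted p = 0.0217). The part of such cells in the Cdx2 result was not tested.

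The TALE homeodomain proteins, which bind DNA together with Hox proteins, had 2 of 8 measured genes called lower and none higher. Over all genes 6.87% were called by their brightest probe set, and all 8 were above background on all arrays of a group. Pbx3 gave 186, 164 and 142 in Pcl2 shRNA cells, against 282, 312 and 317 in control cells (log2 fold change -0.87, SE 0.16, adjusted p = 0.0165), and its second probe set gave -0.85 (adjusted p = 0.0125). Pbx2 gave 356, 411 and 379 in Pcl2 shRNA cells, against 590, 542 and 675 in control cells (log2 fold change -0.64, SE 0.15, adjusted p = 0.0376). All shRNA arrays lay below all control arrays for both genes, as held for 11.8% of all single-gene probe sets. The other Pbx2 probe sets gave -0.31 and -0.80 without being called, and the call of Pbx2 was lost when any array but control replicate 2 was left out. Pbx3 was lost without Pcl2 shRNA replicate 2 or 3. Meis3 gave 20.1, 40.2 and 5.77 in Pcl2 shRNA cells and 70.9, 44.1 and 53.1 in control cells, and was not called (adjusted p = 0.151).

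Of 16 measured genes of the retinoic acid pathway, which induces Hox genes from the anterior end, 2 were lower, 1 was higher and 13 were not called. The called share of all genes was 6.87% by their brightest probe set. Rdh10, which makes the retinaldehyde precursor, gave 66.7, 83.3 and 74.0 in Pcl2 shRNA cells, against 500, 243 and 480 in control cells (log2 fold change -2.28, SE 0.27, adjusted p = 0.00321), and -2.13 by its second probe set. Crabp2, which carries retinoic acid to its nuclear receptors, gave 46.5, 41.2 and 36.9 in Pcl2 shRNA cells, against 124, 148 and 82.1 in control cells (log2 fold change -1.33, SE 0.25, adjusted p = 0.0186). Its call was lost without Pcl2 shRNA replicate 2 or 3 or control replicate 1 or 2. Rxrg, a retinoid X receptor, gave 52.7, 48.8 and 25.3 in Pcl2 shRNA cells, against 8.20, 6.13 and 4.54 in control cells, all under background there, and was at least 1.98-fold higher (adjusted p = 0.0110). That call was lost without Pcl2 shRNA replicate 2, and also with signals floored at background (limma adjusted p = 0.228). The retinoic acid receptor genes Rara, Rarb and Rarg were not called.

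**Figure D4:**
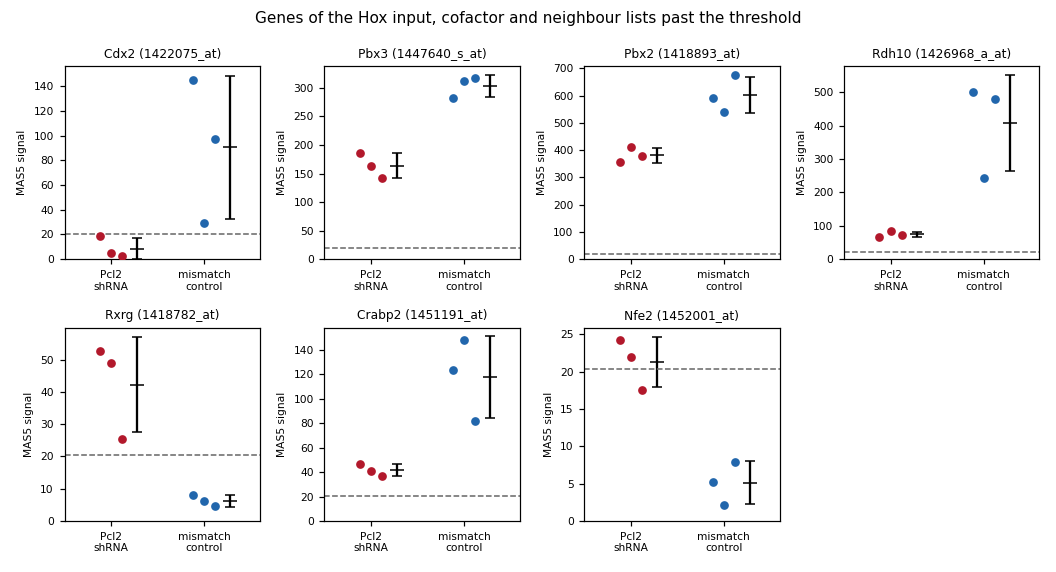
MAS5 signals (linear axes, each panel with its own scale) of the 7 genes past the threshold in the lists of Hox inputs, cofactors and cluster neighbours, with Pcl2 shRNA arrays left and mismatch control arrays right. Points are arrays, black bars mean ± SD (n = 3) and the dashed line the background of 20.3. Cdx2, Pbx3, Pbx2, Rdh10 and Crabp2 are lower and Rxrg and Nfe2 higher in Pcl2 shRNA cells. The groups do not overlap in any panel, but the panels were chosen by the threshold on these same arrays. Over all single-gene probe sets the groups did not overlap for 12.4% in the higher and 11.8% in the lower direction.

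None of the 6 measured activators of the Trithorax side, which oppose Polycomb at Hox genes, was called by limma, Psip1 for example giving 1118 ± 63.3 in Pcl2 shRNA cells and 1207 ± 56.3 in control cells. With the replicate block Men1 was called lower (log2 fold change -0.63, limma adjusted p = 0.0236, against 0.0928 without it). None of the 5 Evx and ParaHox genes, relatives of the Hox genes, was called. Evx2, beside the posterior end of the Hoxd cluster, gave 5.04, 49.1 and 78.1 in Pcl2 shRNA cells, against 55.8, 48.0 and 53.1 in control cells, with shRNA replicate 1 far below the other 5 arrays. Of 18 measured genes lying near the clusters 16 were above background on all arrays of a group, and 1 was called, beside 6.87% of all genes. This was Nfe2, a blood cell transcription factor near the Hoxc cluster, with 24.3, 22 and 17.6 in Pcl2 shRNA cells, against 5.28, 2.16 and 7.93 in control cells, at least 1.04-fold higher with 2 of 3 shRNA arrays above background (adjusted p = 0.0281). Its call was lost when any array but control replicate 3 was left out, and also with signals floored at background (limma adjusted p = 0.501). With the replicate block Nfe2l2 was called higher as well (log2 fold change 0.45, limma adjusted p = 0.0466, against 0.172 without it). The 3 measured noncoding transcripts of the clusters, Hoxa11os, Hoxb5os and Hoxd3os1, were not called and were near or under background, Hoxd3os1 at 19.1, 18.1 and 25.5 in Pcl2 shRNA cells and 22.1, 13.9 and 14.5 in control cells.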

How the data were processed

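Each array is 1 file of MAS5 signals, an intensity for every probe set that the authors obtained with GCOS 1.4, according to the labels (deposited on a linear scale). Further settings and detection calls are not stated. A mean trimmed by 2% at either end came to 150.001 on every array, and no scaling was added. Of the 45101 probe sets, 34945 carried 1 gene symbol in the platform annotation, 932 carried several, 9160 carried none and 64 were controls; 34741 of the first were matched to the RefSeq gene table (GRCm38.p6), the build of the promoter sequences.

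Signals were taken as log2(signal + 7), 7 being their 20th percentile. Every single-gene probe set was fitted without a signal filter, so that dim Hox probe sets were tested too, with limma 3.58.1 in R 4.3.3 (lmFit, eBayes with trend), two-sided, Benjamini-Hochberg adjusted over all 34945. The procedure was tested on simulated data. Changes were placed there only in probe sets with a mean above background, so the test did not cover changes in dim probe sets. Members and lists were chosen with earlier results of these data known. Named were the Hox genes above background on all arrays of a group, the 6 Hox probe sets with the smallest p, and list genes past the threshold (up to 4 a list) or else the brightest of a list. The background level, Hoxa5 and Hoxd9 promoters, and other genes given as examples were chosen after the data were examined. Proteins were not used here.

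Same-numbered samples of the 2 groups deviated together (correlations 0.30 to 0.39, others -0.37 to -0.03). The labels do not say what a number marks, so any pairing rests on the data alone. The main fit, with its SEs, intervals and p-values, did not use the number, which entered only as the replicate block. Log2 values correlated at 0.956 to 0.975 within groups and 0.895 to 0.940 between them.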

Additional observations from a re-analysis of the deposited data

How the results depend on the processing

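Alternatives changed 1 choice at a time. The Hox count stayed at 0 in 18 of 19, with a lowest Hox adjusted p between 0.0719 and 0.864, and was 1 (Hoxd9) without mismatch control replicate 2. Filters at the 40th and 60th percentile left 6 and 2 Hox probe sets to test. The median Hox log2 fold change kept within the spread between replicates except without control replicate 2, ranging from -0.169 to 0.038 over the arrays left out; the median of all probe sets moved by less than 0.1. With the replicate number as a block (replicate block) 3640 probe sets were called in place of 1950, with 9 list genes in place of 7 (Men1 and Nfe2l2 added), and it added the marker genes Nanog, Sox2, Dppa4, Col1a1 and Krt7; it changed no other call of the Hox probe sets, the brightest probe sets of list and marker genes, or Mtf2. With signals floored at background 745 were called, and 642 to 1722 with 1 array left out. The 7 list calls became 4 and 3 with the filters, 2 with the floor (Pbx3 and Rdh10), and 1 to 5 with 1 array left out. The filters removed Cdx2, Rxrg and Nfe2 before testing, and the one at the 60th percentile also removed Crabp2. List calls that were still tested under the filters were kept. Mtf2 kept a value of -0.74 but not its call without the eBayes trend and with the floor, and gave -0.84 to -0.63 with 1 array left out. The sign turned for Hoxc6 under quantile normalization (-0.03) and with a pseudocount of 21 (-0.00), and, with 1 array left out, for Hoxa5 (-0.23 to 0.28), Hoxa9 (-0.19 to 0.13), Hoxa11 (-0.01 to 0.34), both Hoxc6 probe sets (-0.32 to 0.18 and -0.27 to 0.11) and Evx2 (-1.19 to 0.22). The causes were not tested. Each array's own background and quantile normalized signals, both chosen after the data were examined, put 12 and 10 Hox probe sets above background in place of 9.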
